A study of Mus musculus with 6 samples.

Results

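Metallothionein and zinc transporter genes were followed in 6 liver RNA libraries, 3 from males fed normal chow (control) and 3 from males fed chow that contained PS-MP, that is polystyrene microplastic. All were C57BL/6 mice reared for 71 weeks. The comparison addresses how liver transcripts differ between the diets. The sample titles give 71 weeks without saying whether this is age or time on the diet. Neither particle size nor dose is stated in the labels, which also do not say whether libraries of one diet came from separate animals, so errors measure the spread between these libraries only. The set has 8 genes out of 55802 listed: Mt1, Mt2, Mtf1, Slc39a14, Slc39a8, Slc39a4, Slc30a1 and Slc30a10. Rows were taken by symbol, and all 8 passed the filter on low counts that left 17662 genes. The set was selected on gene family together with measured values, namely the diet differences of these genes and the within-diet spread of Mt1 and Mt2. Those values are therefore given as a description with no test.

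Metallothioneins are small cysteine-rich proteins that bind zinc and copper and keep free zinc low in the cell. Their genes are switched on in liver by zinc through the transcription factor MTF1, and also by glucocorticoids, by cytokines of the acute phase and by oxidative stress. Transporters of the ZIP family (Slc39a genes) bring zinc into the cytosol, and those of the ZnT family (Slc30a genes) move it out of the cytosol or into vesicles. Some of them carry manganese or iron as well.

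MTF1 binds the metal response element (MRE), whose core was searched as TGCACNC and TGCGCNC on both strands, with overlapping matches counted separately. A RefSeq table of windows of 300 bases around gene starts, 250 before and 50 after, held 6 of the 8 genes; Slc39a14 and Slc39a4 were not among them. The 250 bases before the start are shown for both metallothionein genes, whose levels moved together, and for both ZnT genes, which did not follow them. The build is GRCm38.p6, not the GRCm39 of the counts. Capitals mark the MRE core, on either strand.
Mt1, chr8:94178839-94179088, plus strand: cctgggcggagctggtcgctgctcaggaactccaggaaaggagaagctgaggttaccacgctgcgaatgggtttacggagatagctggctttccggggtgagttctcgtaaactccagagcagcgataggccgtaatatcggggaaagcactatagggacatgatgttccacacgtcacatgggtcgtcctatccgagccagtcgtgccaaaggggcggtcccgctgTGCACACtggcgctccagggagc
Mt2, chr8:94172368-94172617, plus strand: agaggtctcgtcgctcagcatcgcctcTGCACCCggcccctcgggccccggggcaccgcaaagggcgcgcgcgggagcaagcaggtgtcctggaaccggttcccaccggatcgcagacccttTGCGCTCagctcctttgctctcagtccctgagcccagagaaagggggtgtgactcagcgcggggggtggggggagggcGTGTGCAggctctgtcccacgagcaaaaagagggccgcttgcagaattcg
Slc30a1, chr1:191906531-191906780, plus strand: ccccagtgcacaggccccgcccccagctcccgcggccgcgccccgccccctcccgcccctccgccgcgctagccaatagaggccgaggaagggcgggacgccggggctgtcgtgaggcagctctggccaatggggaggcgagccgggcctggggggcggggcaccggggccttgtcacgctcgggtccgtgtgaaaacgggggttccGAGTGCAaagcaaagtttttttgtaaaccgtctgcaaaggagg
Slc30a10, chr1:185454598-185454847, plus strand: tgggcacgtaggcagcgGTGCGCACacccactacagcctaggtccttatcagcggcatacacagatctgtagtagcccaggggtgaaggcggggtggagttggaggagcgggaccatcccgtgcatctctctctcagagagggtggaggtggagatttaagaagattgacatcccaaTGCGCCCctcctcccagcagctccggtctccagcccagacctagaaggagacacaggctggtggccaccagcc
In the 300-base window, Mt2 held 4 matches and Mt1 held 3, of which 3 and 1 lay before the start listed in that table. The Mt1 matches began at -23, 3 and 21 relative to the listed start. The starts used in these livers were not determined. A match after the listed start therefore need not lie in the transcript, and the letters shown need not be those next to the main start. Slc30a10 also held 3 matches, with a pair on opposite strands that overlap, and Slc30a1 held 2. Among all 32851 windows of the table, 25.7% held at least 1 match and 1.969% held at least 3. The Mtf1 window held 0. A match is a description of the letters and not evidence of binding, and other stretches of these genes were not searched.

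Mt1 and Mt2 differed widely between libraries, within a diet as well as between diets. Levels are counts scaled to a common library total (CPM) after correction by trimmed mean of M values (TMM). Mt1 stood at 38.5, 11.8 and 65.3 CPM in control replicates 1, 2 and 3 and at 1067, 287 and 28.9 CPM in PS-MP replicates 1, 2 and 3. PS-MP replicates 1 and 2 lay above every control library, and PS-MP replicate 3 lay within the control range. The control mean was 38.5 ± 26.7 CPM and the PS-MP mean 461 ± 540.4 CPM (SD, n = 3 each), so the PS-MP spread was larger than its mean. The log2 fold change, PS-MP minus control, was 3.58 (SE 1.26, 95% interval 0.57 to 6.59), and 2.02 without PS-MP replicate 1.

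Mt2 lies beside Mt1 on chromosome 8, with 5513 bases between them in the GRCm38 annotation, and followed the same order of libraries within each diet. Its levels were 11.7, 4.39 and 25.2 CPM in the control libraries and 645, 122 and 5.58 CPM with PS-MP. Here too PS-MP replicate 3 fell within the control range while the other two PS-MP libraries lay above it. The means were 13.7 ± 10.5 CPM in the control libraries and 258 ± 341 CPM with PS-MP (SD, n = 3 each; log2 fold change 4.23, SE 1.54, interval 0.54 to 7.92). Without PS-MP replicate 1 the log2 fold change was 2.20.

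**Figure D1:**
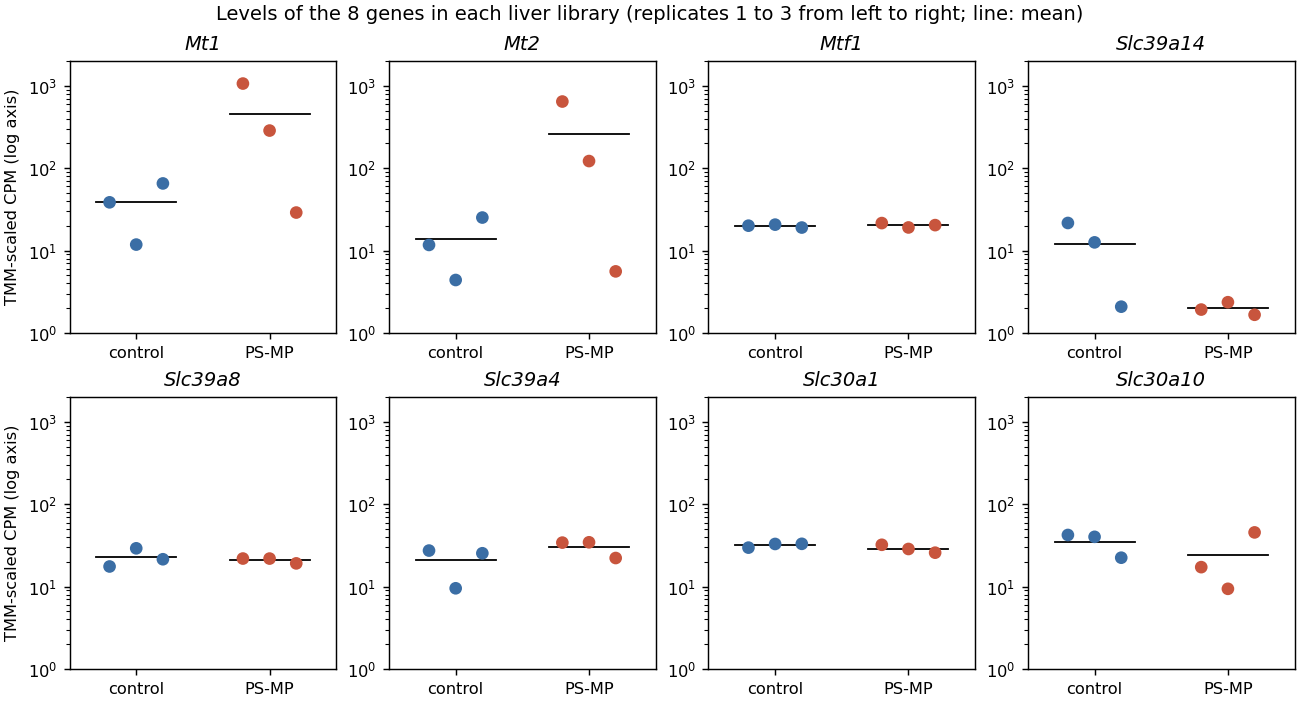
TMM-scaled CPM (log axis) of the 8 genes by diet, 1 point per library and a line at the mean of 3. Mt1 and Mt2 reach 1067 and 645 CPM in PS-MP replicate 1 and return to 28.9 and 5.58 CPM in PS-MP replicate 3, while Mtf1 stays between 19.02 and 21.5 CPM.

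The spread of both genes was wide against other genes of these libraries. Within PS-MP the highest Mt1 library was 36.9 times the lowest, and for Mt2 the span was 116-fold. Within control the spans were 5.53-fold and 5.74-fold. Over the 6596 genes that averaged at least 10 CPM, the median span was 1.29-fold with PS-MP and 1.33-fold in control. In PS-MP, 20 of these 6596 genes had a span at least as wide as that of Mt1 (Mt1 included) and 10 one at least as wide as that of Mt2. In control, 128 had a span at least as wide as Mt1. The set was chosen with this spread known, so the ranks describe it and test nothing.

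The balance between the pair also varied, by far less than their levels. For every 100 Mt1 counts there were 30.4, 37.1 and 38.5 Mt2 counts in the control libraries and 60.5, 42.6 and 19.3 with PS-MP. This ratio is taken within a library and does not depend on scaling. It was highest in PS-MP replicate 1, which had the most Mt1, and lowest in PS-MP replicate 3. The mean was 35.3 ± 4.36 in the control libraries and 40.8 ± 20.7 with PS-MP (SD, n = 3 each), with the control libraries inside the PS-MP range. The difference, 5.46, turned to -4.38 when PS-MP replicate 1 was left out and rose to 16.2 when PS-MP replicate 3 was.

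An annotated gene on the opposite strand of Mt2, Gm45774, had 16, 4 and 14 counts in the control libraries and 2080, 161 and 16 with PS-MP. It was highest in PS-MP replicates 1 and 2, where Mt2 was highest. Within control, Gm45774 was highest in control replicate 1 and Mt2 in control replicate 3. Its counts were below those of Mt2 in every library, with 2080 against 53155 in PS-MP replicate 1 and 16 against 478 in PS-MP replicate 3. No source used here gives the strand setting of the counting, so how reads of the overlap were split between Mt2 and Gm45774 is not known.

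**Figure D2:**
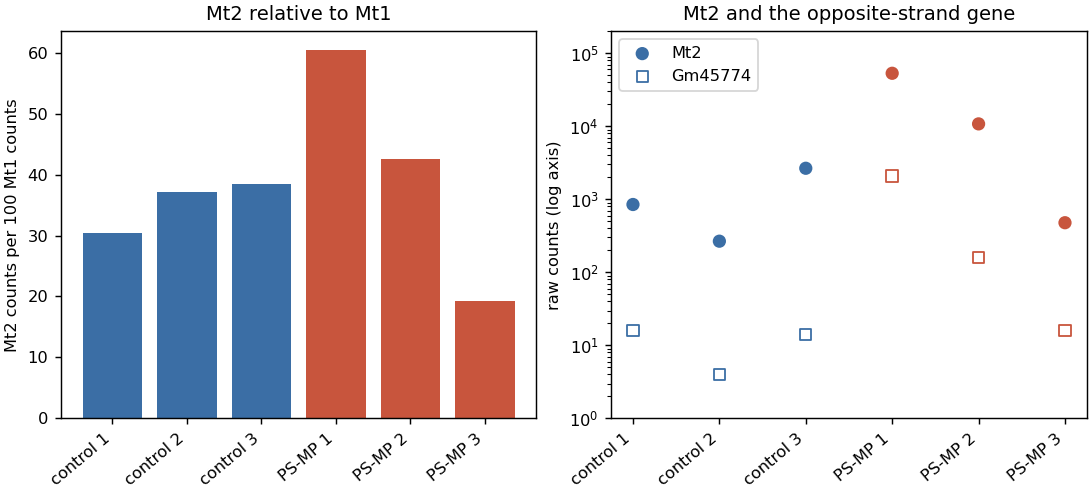
Left, Mt2 counts per 100 Mt1 counts in each library (bars from 0); right, raw counts (log axis) of Mt2 (filled circles) and of the opposite-strand gene Gm45774 (open squares). PS-MP replicate 1 holds the highest value of all 3 quantities: 60.5 Mt2 counts per 100 Mt1 counts, 53155 Mt2 counts and 2080 Gm45774 counts.

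Mtf1, which encodes the zinc-sensing factor itself, was steady. It measured 20.0, 20.6 and 19.02 CPM in the control libraries and 21.5, 19.1 and 20.4 CPM with PS-MP. The diets overlapped, and the 95% interval of the log2 fold change (0.03, SE 0.12) ran from -0.26 to 0.32. The library with 1067 CPM of Mt1 thus had an Mtf1 level 1.13-fold that of the lowest library. Transcript levels of Mtf1 do not measure the activity of its protein. The gene 1110065P20Rik overlaps Mtf1 on the opposite strand and had 649 to 1159 counts.

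Slc30a1 encodes ZnT1, the zinc exporter of the plasma membrane and a known target of MTF1. It was nearly flat, at 29.7, 33.0 and 33.1 CPM in the control libraries and 32.2, 28.6 and 25.8 CPM with PS-MP. The diets overlapped (log2 fold change -0.14, SE 0.13, interval -0.46 to 0.17). Its highest and lowest libraries differed 1.28-fold, against 90.3-fold for Mt1 and 147-fold for Mt2 over the same 6 libraries. PS-MP replicates 1 and 2, where Mt1 was highest, did not stand out for Slc30a1.

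Slc30a10 encodes ZnT10, which exports manganese from hepatocytes into bile. Levels were 42.4, 40.2 and 22.4 CPM in the control libraries and 17.2, 9.40 and 45.5 CPM with PS-MP. PS-MP replicate 3 was the highest of all 6 libraries and PS-MP replicate 2 the lowest, so PS-MP enclosed control. The log2 fold change was -0.54 (SE 0.57, interval -1.91 to 0.83), and -1.41 without PS-MP replicate 3, the library with the lowest Mt1 and Mt2 of that diet. Gm2061, annotated on the opposite strand, had 72, 72 and 41 counts in the control libraries and 18, 17 and 136 with PS-MP, which is also highest in PS-MP replicate 3.

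Slc39a14 encodes ZIP14, an importer of zinc, manganese and iron that is induced in the inflamed liver. It had 21.6, 12.6 and 2.08 CPM in the control libraries and 1.92, 2.36 and 1.66 CPM with PS-MP. Control replicates 1 and 2 were high, while control replicate 3 lay among the PS-MP libraries and below PS-MP replicate 2. The means were 12.1 ± 9.77 CPM in the control libraries and 1.98 ± 0.353 CPM with PS-MP (SD, n = 3 each; log2 fold change -2.61, SE 0.76, interval -4.43 to -0.79). Leaving out control replicate 1 gave -1.88 and leaving out control replicate 3 gave -3.11. The spread sat in control for this gene (10.4-fold, against 1.42-fold with PS-MP) and with PS-MP for the metallothionein genes.

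The other members overlapped between diets. Slc39a8 encodes ZIP8, a manganese and zinc importer, and had 17.6, 29.2 and 21.5 CPM in the control libraries and 21.9, 21.9 and 19.2 CPM with PS-MP (log2 fold change -0.12, SE 0.21, interval -0.61 to 0.38). Its PS-MP libraries all lay inside the control range. Slc39a4 encodes ZIP4, known for zinc uptake in the intestine, and had 27.4, 9.54 and 25.4 CPM in the control libraries and 34.2, 34.5 and 22.2 CPM with PS-MP. Control replicate 2 was the low library there, and it also had the lowest Mt1 and Mt2. The log2 fold change of Slc39a4 was 0.54 (SE 0.40, interval -0.42 to 1.51), and 0.20 without control replicate 2.

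Levels can be compared between genes only per length. Per kilobase of annotated exon (GENCODE M21, GRCm38), the median over the 6 libraries was 41.7 CPM for Mt1 and 31.3 for Mt2, followed by 8.50 for Slc39a4, 5.91 for Slc30a1, 5.37 for Slc30a10, 2.83 for Slc39a8, 2.27 for Mtf1 and 0.210 for Slc39a14. The ranges of Mt1 (9.48 to 856) and Mt2 (7.46 to 1097) overlapped, as did those of Slc39a4, Slc30a1 and Slc30a10. Slc39a8 ranged from 2.29 to 3.81 and Mtf1 from 2.14 to 2.42, which also overlap. Slc39a14 was last by its median and ranged from 0.157 to 2.05, below every Mtf1 value. All other neighbours in this order overlapped in range. Exon lengths join all annotated transcripts of a gene, so they can exceed the transcript made in liver.

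Across all genes, edgeR's quasi-likelihood test called 2 of 17662 (0.0113%) at an adjusted p under 0.05, both higher with PS-MP. It called 0 of the 8 zinc genes. The 95% interval excluded zero for Mt1, Mt2 and Slc39a14, which is an unadjusted p under 0.05 and held for 5.38% of all genes. Control and PS-MP libraries overlapped for all 8, while they did not for 11.2% of all genes tested. Because this contrast was known when the genes were chosen, nothing is read from these counts.

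**Figure D3:**
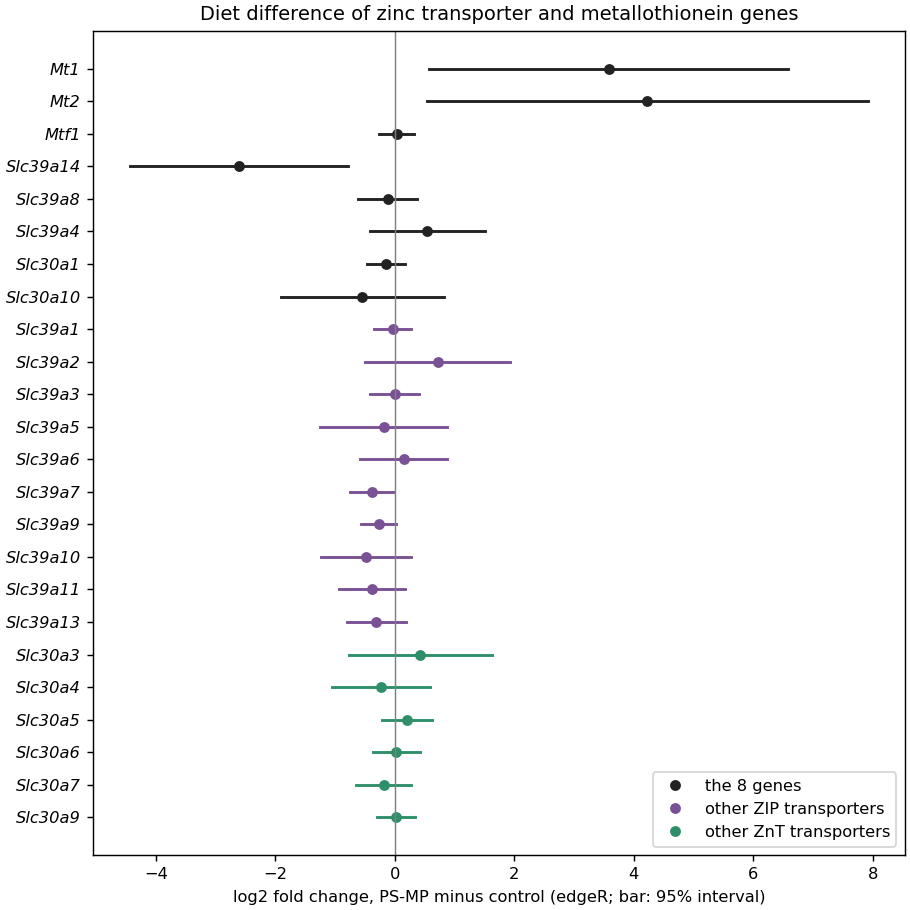
Log2 fold change, PS-MP minus control, with its 95% interval (edgeR) for the 8 genes and for the 16 other ZIP and ZnT genes tested. Intervals of Mt1, Mt2 and Slc39a14 are wide and lie off zero; among the other ZIP and ZnT genes that of Slc39a7 (-0.75 to -0.02) does.

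The rest of both transporter families showed small differences. Of the 19 other ZIP and ZnT genes, 16 were tested, and 0 passed in either direction with edgeR, limma-voom or DESeq2. With edgeR, 1 had an unadjusted p under 0.05. Their median log2 fold change was -0.11 (9 below zero, 7 above), against 0.02 over all genes tested. This sign depends on the scaling, since the median was 0.10 with library size alone, which moved the median of all genes to 0.23. The 95% interval lay inside a 2-fold change for 11 of the 16 (68.8%), as for 53.6% of all genes. The genes not tested were Slc39a12 with 0 counts in every library, and Slc30a2 and Slc30a8 with at most 12 counts in any library.

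Slc39a7 encodes ZIP7, which releases zinc from the endoplasmic reticulum. It had 26.4, 25.2 and 26.0 CPM in the control libraries and 22.0, 16.3 and 21.2 CPM with PS-MP, with every PS-MP library below every control library (log2 fold change -0.38, SE 0.15, edgeR adjusted p = 0.921). Slc39a9, of the Golgi-associated ZIP9, also did not overlap, with 54.5, 45.2 and 51.1 CPM in the control libraries and 40.1, 42.2 and 42.8 CPM with PS-MP (log2 fold change -0.27, SE 0.12, edgeR adjusted p = 0.923). These were 2 of 16 genes with all PS-MP libraries below control, where 4.99% of all genes had this. On the other side, Slc39a2 had a log2 fold change of 0.72 (SE 0.51) at no more than 1.11 CPM in any library, and Slc30a5, of a ZnT of the secretory pathway, 0.21 (SE 0.17). Mt4 had 0 counts throughout, and Mt3 had 4 counts in control replicate 3 and 0 elsewhere. Nearly all metallothionein reads were thus of Mt1 and Mt2.

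Other genes known as MTF1 targets lay on both sides of zero. Of 8 listed, 7 were tested, with a log2 fold change below zero in 5 and above in 2; edgeR called 0, and 0 had an unadjusted p under 0.05. They had a median log2 fold change of -0.02. The list did not record in which direction MTF1 acts on each gene. The split of signs therefore does not show whether these targets responded. Csrp1, of a LIM-domain protein, had 7.29, 7.77 and 6.50 CPM in the control libraries and 9.91, 9.56 and 7.58 CPM with PS-MP (log2 fold change 0.33, SE 0.18). As for Mt1, PS-MP replicates 1 and 2 lay above every control library and PS-MP replicate 3 within their range, at a far smaller scale. Within control the order of Csrp1 was the reverse of that of Mt1, highest in control replicate 2 and lowest in control replicate 3. Slc40a1, the iron exporter ferroportin, had 0.14 (SE 0.11). On the lower side stood Slc39a10, of ZIP10, at -0.48 (SE 0.31), and Gclc, of the catalytic subunit of glutathione synthesis, at -0.43 (SE 0.32). Gclc measured 333, 459 and 305 CPM in the control libraries and 196, 213 and 407 CPM with PS-MP. It was low in the 2 libraries with high Mt1 and higher again in PS-MP replicate 3.

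Genes of copper and manganese handling differed little in size between diets. All 14 listed were tested; edgeR called 0, and 0 had an unadjusted p under 0.05. Of these, 11 lay below zero, and the median log2 fold change was -0.14. All 14 intervals lay inside a 2-fold change. Ccs, the copper chaperone of superoxide dismutase, had -0.21 (SE 0.14) and Cp, which encodes the copper protein ceruloplasmin, -0.16 (SE 0.12). Cp and Sod2, the manganese superoxide dismutase gene, had every PS-MP library below every control library, as 4.99% of all genes had. For Sod2 the margin was narrow, with 172.3 CPM in control replicate 2 and 172.0 CPM in PS-MP replicate 2 (log2 fold change -0.15, SE 0.11). Slc11a2, of the metal importer DMT1, had 0.40 (SE 0.22) and Arg1, the manganese enzyme arginase, 0.18 (SE 0.17).

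Glucocorticoid targets showed no common direction between diets. Of 12 tested, 7 lay above zero and 5 below (median 0.01), and edgeR called 0, while 1 had an unadjusted p under 0.05. That gene, Zbtb16, of a zinc finger transcription factor, had 8.30, 8.20 and 3.60 CPM in the control libraries and 1.89, 2.15 and 2.98 CPM with PS-MP. All PS-MP libraries were below control (log2 fold change -1.52, SE 0.38, edgeR adjusted p = 0.767; DESeq2 adjusted p = 0.0226). Over the MTF1, copper and manganese, glucocorticoid and acute phase lists, DESeq2 called Zbtb16 alone and limma-voom called 0. Tat, the tyrosine aminotransferase gene, had 0.48 (SE 0.22) and Klf9 -0.19 (SE 0.24). These figures compare diets, not libraries within a diet. Per1 had 15.5, 5.01 and 3.90 CPM in the control libraries and 14.8, 23.8 and 1.32 CPM with PS-MP. Within PS-MP, Per1, Fkbp5, Klf9, Lcn2, Tsc22d3 and Sds were lowest in PS-MP replicate 3, as Mt1 was. Tat, Sgk1, Dusp1, Pck1, Tdo2 and Zbtb16 were not. The share of all genes lowest in that library was not computed, so nothing is read from this split. Within control, Mt1 was highest in control replicate 3. Fkbp5, Klf9 and Lcn2 were also highest there and Sds was not, while Per1 and Tsc22d3 were lowest there. A link to the metallothionein levels was not tested.

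Acute phase and IL-6 targets were also mixed. Of 17 listed, 16 were tested, 9 lay above zero (median 0.11) and edgeR called 0. The gene with an unadjusted p under 0.05 was Hamp, of the iron hormone hepcidin, at 1503, 1288 and 1685 CPM in the control libraries and 953, 1011 and 1142 CPM with PS-MP. Its diets did not overlap (log2 fold change -0.53, SE 0.16, edgeR adjusted p = 0.805). Lcn2, of lipocalin 2, had 5.26, 2.18 and 6.01 CPM in the control libraries and 16.2, 5.66 and 4.33 CPM with PS-MP, with its highest level in PS-MP replicate 1 and lowest in control replicate 2, as for Mt1. Itih4 had 0.54 (SE 0.28) and Saa2, of a serum amyloid A protein, -0.61 (SE 0.38). The summed level of the list was 13967 to 17115 CPM in the control libraries and 14072 to 18692 CPM with PS-MP.

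The genes nearest in pattern to Mt1 and Mt2 were sought among all genes tested. Likeness was the root mean square difference of log2(CPM + 0.5), centred on each gene's mean, over the 6 libraries. Mt1 and Mt2 themselves differed by 0.47 on this scale. The nearest others, predicted genes passed over, were Ciart (0.94), Hamp2 (1.09), Cux2 (1.13), Slc22a26 (1.16) and Rrp36 (1.18). Ciart, a repressor of the circadian clock, had 0.840, 0.115 and 4.65 CPM in the control libraries and 12.7, 16.2 and 0.187 CPM with PS-MP. It too was high in PS-MP replicates 1 and 2 and within the control range in PS-MP replicate 3. Hamp2, the hepcidin paralogue, had 29.4, 8.85 and 46.9 CPM in the control libraries and 138, 68.4 and 9.26 CPM with PS-MP, in the same order within each diet as Mt1. Hamp and Hamp2 are close paralogues, so the split of reads between them is uncertain, and Hamp itself ran the other way between the diets. Cux2, of a homeobox transcription factor, rested at 0.193 to 0.293 CPM in the control libraries and had 6.56, 4.87 and 0.385 CPM with PS-MP.

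For Slc39a14 the nearest were antibody variable segments: Ighv1-53 (0.39), Igkv3-1 (0.48) and Igkv10-96 (0.51). Ighv1-53 had 9.76, 10.7 and 1.74 CPM in the control libraries and 1.41, 0.849 and 1.18 CPM with PS-MP. Such segments have near-identical copies, and their single values are uncertain. The summed lymphocyte markers did not follow this order, at 8.75, 13.6 and 6.10 CPM in the control libraries and 4.65, 15.3 and 8.65 CPM with PS-MP. These genes were picked as nearest among all genes tested, so their likeness is a description.

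**Figure D4:**
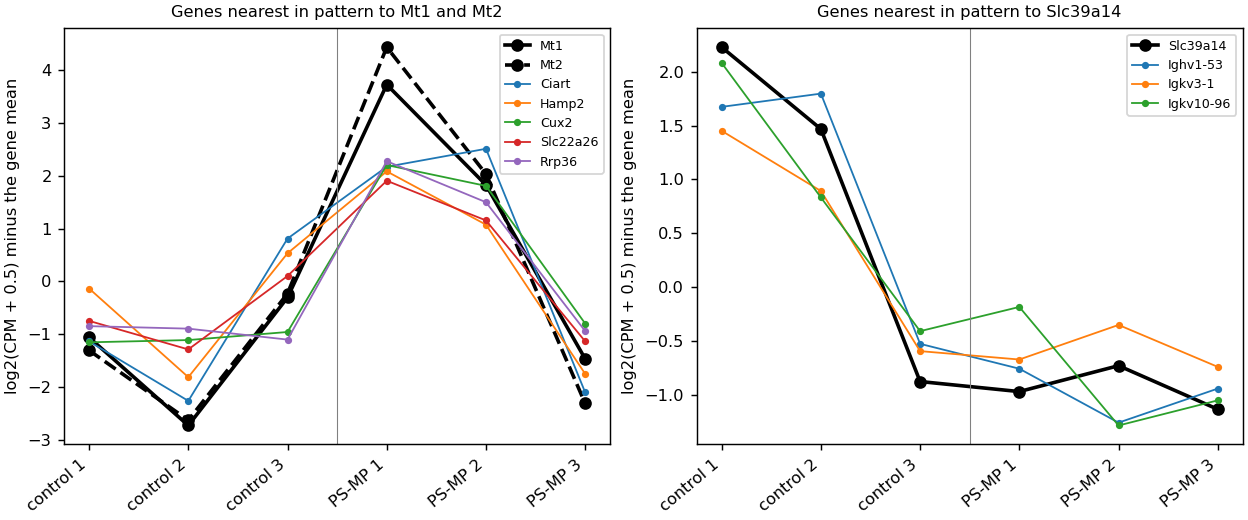
Log2(CPM + 0.5) minus each gene's mean in the 6 libraries for Mt1 and Mt2 with the 5 genes nearest to their mean (left) and for Slc39a14 with its 3 nearest (right); lines only join the points of one gene. Mt1, Mt2 and Ciart are high in PS-MP replicates 1 and 2 and low in PS-MP replicate 3, and Slc39a14 is high in control replicates 1 and 2.

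Several properties of the libraries differed between diets beside these results. Totals ran from 68357478 to 112566641 counts and overlapped between diets. TMM factors did not overlap, at 0.891 to 0.957 in the control libraries and 1.04 to 1.11 with PS-MP. Nor did the genes with any count, at 23042 to 23791 in the control libraries and 24004 to 24763 with PS-MP. 18S ribosomal RNA (Rn18s-rs5) took 1.149% to 11.2% of counts in the control libraries and 0.387% to 1.14% with PS-MP, with the 11.2% in control replicate 2, the library with the lowest Mt1 and Mt2. Hepatocyte markers summed to 59380 to 67752 CPM in the control libraries and 61925 to 78618 with PS-MP. The sum of Kupffer cell markers did not overlap, at 79.9 to 102 CPM in the control libraries and 116 to 139.6 CPM with PS-MP. Of these markers, 4 of 6 had every PS-MP library above control, as held for 6.24% of all genes tested. The sum of neutrophil markers did not overlap either, at 0.870 to 1.18 CPM in control and 1.55 to 6.05 CPM with PS-MP. Here 3 of 6 markers had every PS-MP library above control, namely S100a8, S100a9 and Retnlg, with at most 212 counts in any library. Elane overlapped between diets (log2 fold change -0.22, SE 0.56). Ngp and Mpo were not tested, and Ngp had 79 counts in PS-MP replicate 2 and 0 in the other PS-MP libraries. The sum of red cell markers was higher in every PS-MP library, at 263 to 504 CPM in control and 571 to 848 CPM with PS-MP. Of these, 2 of 6 had every PS-MP library above control, namely Hbb-bs and Hbb-bt. Hba-a1, Hba-a2, Alas2 (log2 fold change -0.07) and Slc4a1 overlapped between diets. The sum of the enterocyte list was lower, at 186 to 271 and 91.4 to 163 CPM (1 of 6 with every PS-MP library below control, against 4.99% of all genes tested). That gene was Apoa4, and nearly all of the sum was Apoa4 and Fabp2, whose diets overlapped for Fabp2. Lct was at 0, and Vil1, Alpi and Sis had at most 14 counts in any library. The sum therefore gives no measure of enterocytes. The sums of endothelial, stellate, cholangiocyte, adipocyte, lymphocyte and pancreatic acinar markers overlapped, and 4 of 6 acinar markers were at 0 in every library. Of the adipocyte markers, 1 of 6 had every PS-MP library below control. That was Retn, with 18, 11 and 35 counts in the control libraries and 0 in every PS-MP library. The part of these differences in the values above was not tested. In pieces of tissue, fewer cells of a type and less RNA per cell cannot be told apart.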

How the data were processed

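Liver RNA was measured in 3 control and 3 PS-MP libraries. Per the labels, libraries were directional and made from poly(A)-selected RNA. Of the processing, bcl2fastq and the build GRCm39 are known from the submitters' processing notes. No source used here gives the aligner, counting program, annotation or strand setting. The deposited values are unnormalised read counts per gene. A deposited table of the series repeats the same counts in all 6 columns and was not used.

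Rows of one symbol were summed (56674 rows, 55802 symbols). In R 4.3.3, filterByExpr of edgeR 4.0.16 left 17662 genes. Diets were compared with its quasi-likelihood test after TMM scaling, fitting diet alone and adjusting p over all genes tested (Benjamini-Hochberg). Intervals use 6.63 moderated degrees of freedom. Depth was 68357478 to 112566641 counts per library, so 3 counts are at most 0.0493 CPM. In simulated counts (17175 genes tested), the test recovered 60 of 100 genes simulated with a 4-fold change and 6 of 100 with a 2-fold change, and it also called 10 genes simulated without change. Counts were drawn from the same kind of model that edgeR fits, with dispersions fitted to these data. Changed genes were drawn only from above a minimum level, so the recovery does not extend to genes of low level.

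The members and lists were chosen with earlier results of these data known. Named genes were the members, the other ZIP and ZnT genes with an unadjusted p under 0.05, the 2 with the smallest p each way in these families and in each further list, and the genes nearest in pattern. Sod2, Gm45774, Gm2061, 1110065P20Rik, Apoa4, Fabp2, the further glucocorticoid targets and the genes at or near 0 counts were named after their values were seen. So were the other cell type markers given singly. Alternatives were other scalings and filters, DESeq2 1.42.0, limma-voom (limma 3.58.1), removal of ribosomal RNA rows, a replicate block and leaving out each library.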

Additional observations from a re-analysis of the deposited data

How the results depend on the processing

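Of 169 values recomputed under other scalings, filters, tools, the block or without ribosomal RNA rows, 9 moved. A log2 fold change, span or ratio counted as moved only if it shifted by at least its within-diet SD. That SD was wide for Mt1 and Mt2. The fall of Mt2 from 4.23 to 2.72 with limma-voom did not count as moved. Nor did the change of sign of Slc39a8, from -0.12 to 0.11 with library size alone. The low number of moves is thus no measure of stability. DESeq2 called 62 genes higher and 125 lower against 2 and 0, with 1 of the 8 zinc genes (Slc39a14, log2 fold change -2.61, adjusted p = 0.0178) and 1 gene of the further lists (Zbtb16) lower; limma-voom called 1 higher. With library size alone the log2 fold change of Mtf1 was 0.24, that of Slc30a1 0.068 and the median of the other ZIP and ZnT genes 0.10. The labels do not say that replicate numbers mark pairs, so the main fit did not pair them. Same-numbered libraries deviated together with r of 0.15, 0.18 and -0.14 across genes, and differently numbered ones with r of -0.26 to 0.11. These values do not settle whether the numbers mark pairs. With the replicate block 0 genes were called higher. With a library left out, 0 to 3 genes were called higher and 0 to 1 lower (0 higher without control replicate 3, 3 without control replicate 2), and 0 of the 8 genes and of the lists in each case. The log2 fold changes then ranged from 2.02 to 4.19 for Mt1, 2.20 to 5.001 for Mt2, -0.01 to 0.08 for Mtf1, -3.11 to -1.88 for Slc39a14, -0.27 to 0.10 for Slc39a8, 0.20 to 0.79 for Slc39a4, -0.23 to -0.08 for Slc30a1 and -1.41 to -0.15 for Slc30a10, and the median of the other ZIP and ZnT genes from -0.154 to 0.015 (0.015 without control replicate 1). The cause of these moves was not tested.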
